A study of Mus musculus with 6 samples.

Results

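Bdnf encodes brain-derived neurotrophic factor, a secreted growth factor of neurons, and is described here across the hippocampal libraries of a mouse study of early-life immune activation. It was taken from the deposited gene table by its symbol and is 1 of 3733 genes listed there. Total RNA of the mouse hippocampus was sequenced in 3 groups of 2 libraries each. PIA+IL-27 received LPS, a bacterial trigger of innate immunity, together with recombinant IL-27, a cytokine made mainly by myeloid cells. PIA, short for postnatal immune activation in the study's title, received LPS alone. Control is the control group, for which the labels name no agent. The comparisons address whether immune activation, and IL-27 given with it, go with another level of hippocampal transcripts. The labels give no strain, sex, age, dose, interval or pooling of animals, and no allele or transgene is named in any group. They do not tie the 2 libraries of a group to separate animals either, so p-values measure the spread between these samples, which may be partly technical. The edgeR fits draw that spread from all tested genes together rather than from Bdnf alone. In RNA of a whole tissue, fewer cells of a type and less RNA per cell cannot be told apart.

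The neurotrophins are small secreted proteins that bind receptor tyrosine kinases of the Trk family. Bdnf is made as a precursor that is cut to a mature form, inside the cell or by proteases outside it; the mature form signals through Ntrk2 (TrkB), and the precursor binds Ngfr (p75) with sortilin. In the hippocampus, Bdnf mRNA is made chiefly by excitatory neurons, among them dentate granule cells, its transcription follows neuronal activity, and the protein is known for its part in synaptic plasticity.

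The gene has the identifier 12064 and lies on the plus strand of chromosome 2, from base 109674700 to base 109727043 of GRCm38.p6 in RefSeq, which gives it 12 transcripts. It is known for a row of alternative first exons, each with a promoter of its own, spliced to a shared exon that holds the coding sequence. The deposited table counts all of them together, so no value below belongs to a single promoter. GENCODE M21 lists 11 transcripts with 9 different starts, and 1 other annotated gene, Gm45346 on the minus strand, overlaps the span of Bdnf. Whether the authors' counting used strand is not given in the sources used here, and overlap of the exons was not looked up. Whether reads of Gm45346 entered the Bdnf count is therefore not known. The genome build behind the deposited counts is not given either, and the coordinates here are those of the annotation.

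RefSeq holds 7 promoter windows for Bdnf, of which 2 contain TCACGT on either strand (ACGTGA in reverse) within the 250 bases before the start. These are the windows before the first exons known in the field as I and IV, and they are shown because calcium and cyclic-AMP responsive transcription of Bdnf through Creb1 is best known from them. The letters come from the RefSeq table for GRCm38.p6, plus strand, and TCACGT is in capitals.
chr2:109674450-109674699, before exon I: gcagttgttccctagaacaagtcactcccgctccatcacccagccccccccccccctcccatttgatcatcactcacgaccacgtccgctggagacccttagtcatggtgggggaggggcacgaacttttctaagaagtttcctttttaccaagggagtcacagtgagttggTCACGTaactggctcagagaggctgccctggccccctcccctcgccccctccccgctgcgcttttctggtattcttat
chr2:109692186-109692435, before exon IV: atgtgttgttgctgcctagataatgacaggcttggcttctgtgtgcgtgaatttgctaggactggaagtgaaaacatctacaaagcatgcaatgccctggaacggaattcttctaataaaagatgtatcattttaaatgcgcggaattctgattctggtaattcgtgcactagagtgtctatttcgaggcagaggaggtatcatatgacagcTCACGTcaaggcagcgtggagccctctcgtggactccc
The match begins 78 bases before the start in the exon I window and 38 bases before it in the exon IV window. TCACGT was found in 5.88% of all 32851 RefSeq mouse promoter windows of 250 bases. CGTCA, the short core of the cyclic-AMP response element (TGACG in reverse), was found in 1 of the 7 Bdnf windows, the one before exon IV, where it overlaps TCACGT, and in 17.8% of all windows. The symmetrical E-box CACGTG was found in 0 of 7 and in 6.02% of all windows. TTCNNNGAA, the spaced palindrome bound by STAT factors, which IL-27 is known to activate, was found in 1 of 7, 122 bases before the exon I start, and in 7.02% of all windows. A match of letters is a description and not a binding site.

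The reads in listed genes ranged from 641672 to 1593441 per library, of which Bdnf took 17 to 156. Bdnf was lowest in the libraries of PIA, and within the other groups 1 library was high and 1 was nearly as low as PIA. In PIA+IL-27 it had 45 reads in replicate 1 and 156 reads in replicate 2. In PIA it had 38 and 17 reads, and in Control 46 and 137 reads. All 6 read counts are whole numbers. The exact Poisson 95% intervals, which cover counting error only, ran from 32.8 to 60.2 and from 133 to 183 reads in PIA+IL-27, from 26.9 to 52.2 and from 9.90 to 27.2 reads in PIA, and from 33.7 to 61.4 and from 115 to 162 reads in Control. The intervals of PIA+IL-27 replicate 1, PIA replicate 1 and Control replicate 1 overlap each other, and those of PIA+IL-27 replicate 2 and Control replicate 2 lie above all the rest.

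On the authors' normalized read count, which divides the reads by 1 factor per library, Bdnf stood at 46.9 and 151 in PIA+IL-27, at 36.5 and 18.5 in PIA, and at 45.1 and 130 in Control. In order from low to high the libraries were PIA 2, PIA 1, Control 1, PIA+IL-27 1, Control 2 and PIA+IL-27 2. Both PIA libraries lay below the other 4, with PIA 1 and Control 1 as near neighbours. Among all 3733 listed genes, 370 (9.91%) had both PIA libraries below the other 4. In TPM, a level scaled by transcript length and by library, Bdnf had 1.35 and 4.51 in PIA+IL-27, 0.99 and 0.49 in PIA, and 1.19 and 4.03 in Control. It ranked above 36.0% and 60.1% of the listed genes by TPM in PIA+IL-27, above 37.5% and 28.9% in PIA, and above 46.3% and 54.7% in Control, so it was a gene of low to middling level within the table.

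**Figure D1:**
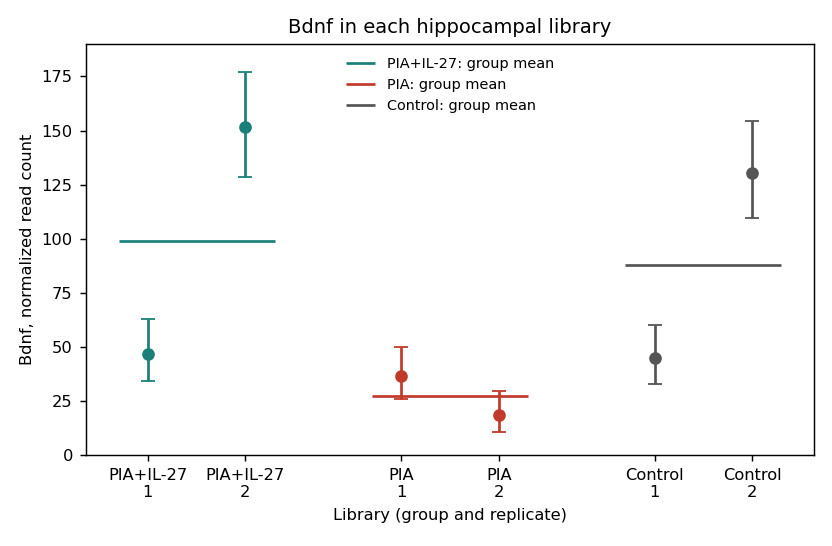
Normalized read count of Bdnf (vertical axis) in each of the 6 hippocampal libraries, 1 point per library, from PIA+IL-27 through PIA to Control. Vertical bars are exact Poisson 95% intervals of the reads, divided by the library's factor, and horizontal lines are group means (n = 2); replicate 2 of PIA+IL-27 and of Control, at 151 and 130, stand apart from the other 4 libraries, at 18.5 to 46.9.

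The spread within groups was of the order of the differences between them. The mean normalized read count of Bdnf was 99.2 ± 73.9 in PIA+IL-27, 27.5 ± 12.7 in PIA and 87.8 ± 60.4 in Control (SD, n = 2 each). The higher library exceeded the lower by 3.23-fold in PIA+IL-27, by 1.97-fold in PIA and by 2.90-fold in Control. The means in TPM were 2.93 ± 2.23 in PIA+IL-27, 0.74 ± 0.354 in PIA and 2.61 ± 2.01 in Control (SD, n = 2 each). Read-count ratios between single libraries show how far the choice of library matters. In the authors' deposited table, the log2 ratio of PIA 1 to Control 1 was -0.28, with the authors' p-value of 0.402, and that of PIA 2 to Control 2 was -3.01, with a p-value of 9.642e-25. For PIA+IL-27 over PIA the authors' deposited table gives log2 ratios from 0.24 (PIA+IL-27 1 over PIA 1, p-value 0.267) to 3.20 (PIA+IL-27 2 over PIA 2, p-value 5.374e-29). These p-values set 1 library against 1 library and carry no spread between samples.

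In PIA against Control, Bdnf had 36.5 and 18.5 normalized reads in PIA, against 45.1 and 130 in Control, and the groups did not overlap. The fitted log2 difference was -1.67 with a standard error of 0.989 (0.315-fold, 95% interval from -3.60 to 0.273), and edgeR's quasi-likelihood test gave an unadjusted p of 0.0922 and a Benjamini-Hochberg adjusted p of 0.617 over 3216 tested genes. The difference therefore did not pass the threshold of 0.05. That threshold was passed by 7 genes, or 0.218% of those tested. Groups that do not overlap with PIA lower were found for 16.5% of the listed genes. The median of all tested genes was itself at -0.68 in this comparison, so Bdnf lay 0.99 further down on the log2 scale, and 8.36% of tested genes had a lower value. An exact two-sided permutation test over the 4 libraries gave p = 0.333, the smallest that 2 against 2 can give. Without Control 2 the log2 difference was -0.70, and without Control 1 it was -2.24. With TMM factors over the listed genes, which place the median of all tested genes at about 0, Bdnf was at -1.01 relative to that median.

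In PIA+IL-27 against PIA, Bdnf had 46.9 and 151 normalized reads in PIA+IL-27, against 36.5 and 18.5 in PIA, again without overlap. The fitted log2 difference was 1.84 with a standard error of 0.993 (3.59-fold, 95% interval from -0.104 to 3.79), with an unadjusted p of 0.0636 and an adjusted p of 0.265 by edgeR. It did not pass either; 14 genes, or 0.435%, did. Of 17 alternatives, with adjusted p from 0.0238 to 0.920, Bdnf passed in 1, a crossed replicate block chosen after the data were seen (log2 difference of 1.71), which called 1195 genes in all. Separation with PIA+IL-27 higher was the commonest pattern in the table, at 57.1% of listed genes. The median of all tested genes was 1.17, so Bdnf lay 0.67 above it, and 16.5% of tested genes lay higher. The exact permutation p was 0.333. Without PIA+IL-27 2 the log2 difference was 0.76, which is below the median of 1.18 over all tested genes in that fit. The difference was 2.45 without PIA+IL-27 1, 2.41 without PIA 1, and 0.73 with TMM factors.

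In PIA+IL-27 against Control, the normalized reads of Bdnf were 46.9 and 151 in PIA+IL-27 and 45.1 and 130 in Control, so the groups overlapped. Groups without overlap were found for 23% of listed genes with PIA+IL-27 higher and for 7.5% with PIA+IL-27 lower. The fitted log2 difference was 0.18 with a standard error of 0.953 (1.13-fold, 95% interval from -1.69 to 2.05; unadjusted p of 0.853, adjusted p of 0.921 by edgeR). The interval spans a difference of several fold in either direction, so the value does not show that the levels were alike. In this comparison 10 genes, or 0.311%, passed. The median of all tested genes was 0.55, which leaves Bdnf 0.37 below it, and the sign of the Bdnf difference turned with the scaling: it was -0.27 with TMM factors over the listed genes. The exact permutation p was 0.667. All 3 comparisons share libraries, so they are not independent of each other.

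The authors' own group comparisons gave like sizes, with small Q values in both comparisons that involve PIA alone. The authors' deposited table lists Bdnf at a log2 of -1.73 for PIA over Control (Q value 1.169e-16), 1.91 for PIA+IL-27 over PIA (Q value 3.231e-21) and 0.18 for PIA+IL-27 over Control (Q value 0.315). Counting a gene as called where the log2 reaches 1 in size and the Q value stays within 0.05, the authors' deposited table calls 34.4% of the listed genes lower in PIA than in Control and 61.4% higher in PIA+IL-27 than in PIA, and Bdnf is in both sets. For PIA+IL-27 over Control the authors' deposited table calls 13.3% higher and 8.57% lower, and Bdnf is in neither set. Every one of the 3733 listed genes is called in at least 1 of the 3 comparisons, and how the authors' test weighs the spread between samples is not given in the sources used here.

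**Figure D2:**
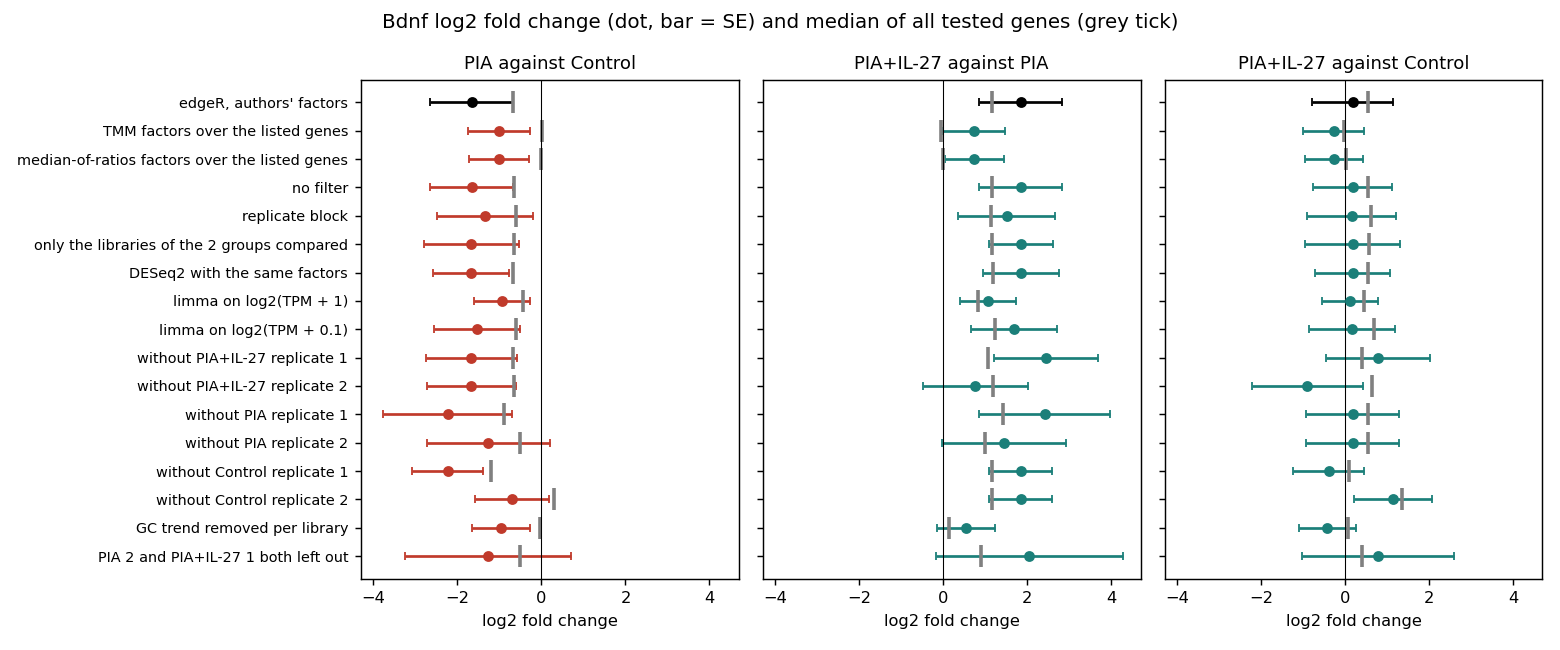
Log2 fold change of Bdnf (horizontal axis, dots with the standard error as a bar) in the 3 comparisons, with the fit by edgeR and the authors' factors at the top and 1 processing alternative per row below it; grey ticks are the medians of all tested genes. PIA against Control lies below 0 in every row drawn (-2.24 to -0.70), PIA+IL-27 against PIA lies above 0 (0.54 to 2.45), and PIA+IL-27 against Control lies on both sides of 0 (-0.90 to 1.14).

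Other features of the libraries also differed, in part with Bdnf and in part away from it. Between the Control libraries, Bdnf was higher in replicate 2 by 1.51 on the log2 scale of the normalized read count + 1, and the median of all listed genes was higher by 1.22, with 37.5% of genes above Bdnf. Between the PIA+IL-27 libraries, Bdnf was higher in replicate 2 by 1.67, while the median listed gene was at -0.26 and 7.69% of genes lay above Bdnf. Between the PIA libraries Bdnf was at -0.94, with the median gene at -0.32. Bdnf therefore moved with most of the table in Control, and away from most of it in PIA+IL-27. The longest coding transcript of Bdnf has a GC content of 40.9%, below the median of 44.9% over listed genes. Differences between groups varied with GC content, with a Spearman correlation across 3545 genes of -0.659 for PIA+IL-27 against PIA. The correlation was 0.328 for PIA against Control and -0.525 for PIA+IL-27 against Control. Within groups it was -0.518 for replicate 2 over replicate 1 of Control, 0.183 for PIA and 0.0178 for PIA+IL-27. These values are a description over genes that share the same libraries. The 476 genes within 1 percentage point of the GC content of Bdnf had a median log2 of -0.80 for PIA against Control, where Bdnf had -1.67, and a median of 1.48 for PIA+IL-27 against PIA, where Bdnf had 1.84. With a GC trend removed per library, an alternative chosen after the data were seen, Bdnf was at -0.96 and 0.54 in these comparisons. That fit also moved the medians of all tested genes, to -0.04 and 0.13 from -0.68 and 1.17. Relative to the median, Bdnf was at -0.92 and 0.41 with the trend removed, beside -0.99 and 0.67 without that step. The part of GC content in the Bdnf differences was not tested further.

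The remaining neurotrophin system is thinly represented in the deposited table, which is a selection of genes. Of the neurotrophins, Bdnf is the only listed member. Of 116 further genes in lists of receptors, processing, transcription and signalling, 20 are listed, 19 passed the filter on low counts and 0 passed the adjusted threshold in edgeR in any comparison. At an unadjusted p under 0.05 there were 0 in PIA against Control, 3 in PIA+IL-27 against PIA and 2 in PIA+IL-27 against Control, beside 6.28%, 18.7% and 2.86% of all tested genes. DESeq2 and limma called 0 as well, but other edgeR fits of PIA+IL-27 against PIA called members: 3 with only the libraries of both groups, and 10 with a crossed replicate block chosen after the data were seen. The median log2 of the 19 was -0.77 in PIA against Control, 1.44 in PIA+IL-27 against PIA and 0.71 in PIA+IL-27 against Control, close to the medians of all tested genes in the first case and somewhat above them in the others. With TMM factors, which bring the median of all genes to about 0, the medians of the 19 were -0.07, 0.16 and 0.16. Of the 20 listed genes, 0 had both PIA libraries below the other 4, as Bdnf had, beside 9.91% of all 3733 genes in the deposited table.

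Of 11 receptor genes, Sorcs1, a sorting receptor of the sortilin family, is the listed member. It had 928 and 147 normalized reads in PIA+IL-27, 130 and 444 in PIA, and 109 and 210 in Control. Its high libraries, PIA+IL-27 1 and PIA 2, are among those where Bdnf was low. The log2 difference was 1.75 in PIA+IL-27 against Control, with an adjusted p of 0.835 by edgeR.

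Of 18 genes of cleavage and secretion, 5 are listed. Pcsk1, a prohormone convertase of the secretory granule, had 75.1 and 113 normalized reads in PIA+IL-27, 58.6 and 36.0 in PIA, and 57.8 and 134 in Control. Its 2 highest libraries were those of Bdnf, PIA+IL-27 2 and Control 2, and PIA 2 was lowest for both genes. Syt4, a synaptotagmin of Bdnf-containing vesicles, had 5294 and 5399 in PIA+IL-27, 2947 and 1297 in PIA, and 2218 and 4152 in Control. Extracellular proteases had another order. Mmp9, a matrix protease able to cut the precursor, had 99.1 and 71.8 normalized reads in PIA+IL-27, 351 and 156 in PIA, and 179 and 126 in Control. It was lower in both PIA+IL-27 libraries than in both PIA libraries, as were 16.5% of all listed genes. Its log2 difference of -1.57 did not pass (adjusted p of 0.286 by edgeR). Mmp3, a further matrix protease, was read at 0 in both PIA+IL-27 libraries, at 11.5 and 1.09 in PIA, and at 1.96 and 0 in Control, and was too low to be tested.

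Of 25 genes of transcription and RNA control of Bdnf, 7 are listed. Creb1, the activity-dependent transcription factor of the Bdnf promoters, had 512 and 392 normalized reads in PIA+IL-27, 187 and 110 in PIA, and 135 and 427 in Control. Camk4, a kinase that phosphorylates Creb1, had 2976 and 2714 in PIA+IL-27, 969 and 691 in PIA, and 853 and 2862 in Control. In contrast to Bdnf, both were high in PIA+IL-27 1, and for Creb1 the lower PIA library lay below Control 1 while the higher lay above it. Elavl4 and Elavl2, neuronal RNA-binding proteins, of which Elavl4 (HuD) is known to stabilise Bdnf mRNA, had log2 differences of 2.09 and 1.59 in PIA+IL-27 against PIA. Mef2a, an activity-regulated transcription factor, was at 1.56 in the same comparison. None of these passed, with adjusted p of 0.257 to 0.272 by edgeR for Camk4, Creb1, Elavl2, Elavl4 and Mef2a. When only the libraries of PIA+IL-27 and PIA were fitted, Camk4, Elavl2 and Elavl4 passed, in a fit that called 449 genes in all. Mef2c, also an activity-regulated factor, had 21319 and 2126 normalized reads in PIA+IL-27, 2763 and 5328 in PIA, and 2051 and 1695 in Control. Its log2 difference was 2.65 in PIA+IL-27 against Control, with an unadjusted p of 0.0011 and an adjusted p of 0.206 by edgeR. Mef2c is also a marker of neocortical neurons.

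Of 59 signalling genes below Ntrk2, 7 are listed. All 7 had a positive log2 difference in PIA+IL-27 against PIA, between 0.99 and 1.59, as had 74.8% of all tested genes. With TMM factors 4 of the 7 stayed above 0. Rps6ka3, a ribosomal S6 kinase that can phosphorylate Creb1, had 822 and 545 normalized reads in PIA+IL-27, 264 and 191 in PIA, and 179 and 604 in Control. Pik3r1, the regulatory subunit of PI3-kinase, had 3275 and 1789 in PIA+IL-27, 997 and 855 in PIA, and 801 and 1960 in Control. For both genes Control 1 was the lowest library, whereas Bdnf was lowest in PIA 2. Braf, a kinase of the Ras pathway, Pik3ca, the catalytic subunit of PI3-kinase, and Rap1a, a small GTPase, were between 1.06 and 1.44 in this comparison, with adjusted p of 0.288 to 0.343 by edgeR. The deposited annotation itself assigns 16 listed genes besides Bdnf to the KEGG neurotrophin pathway; of the 15 tested, 0 passed, and their median log2 was -0.78 in PIA against Control, 1.17 in PIA+IL-27 against PIA and 0.49 in PIA+IL-27 against Control, beside -0.68, 1.17 and 0.55 for all tested genes.

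**Figure D3:**
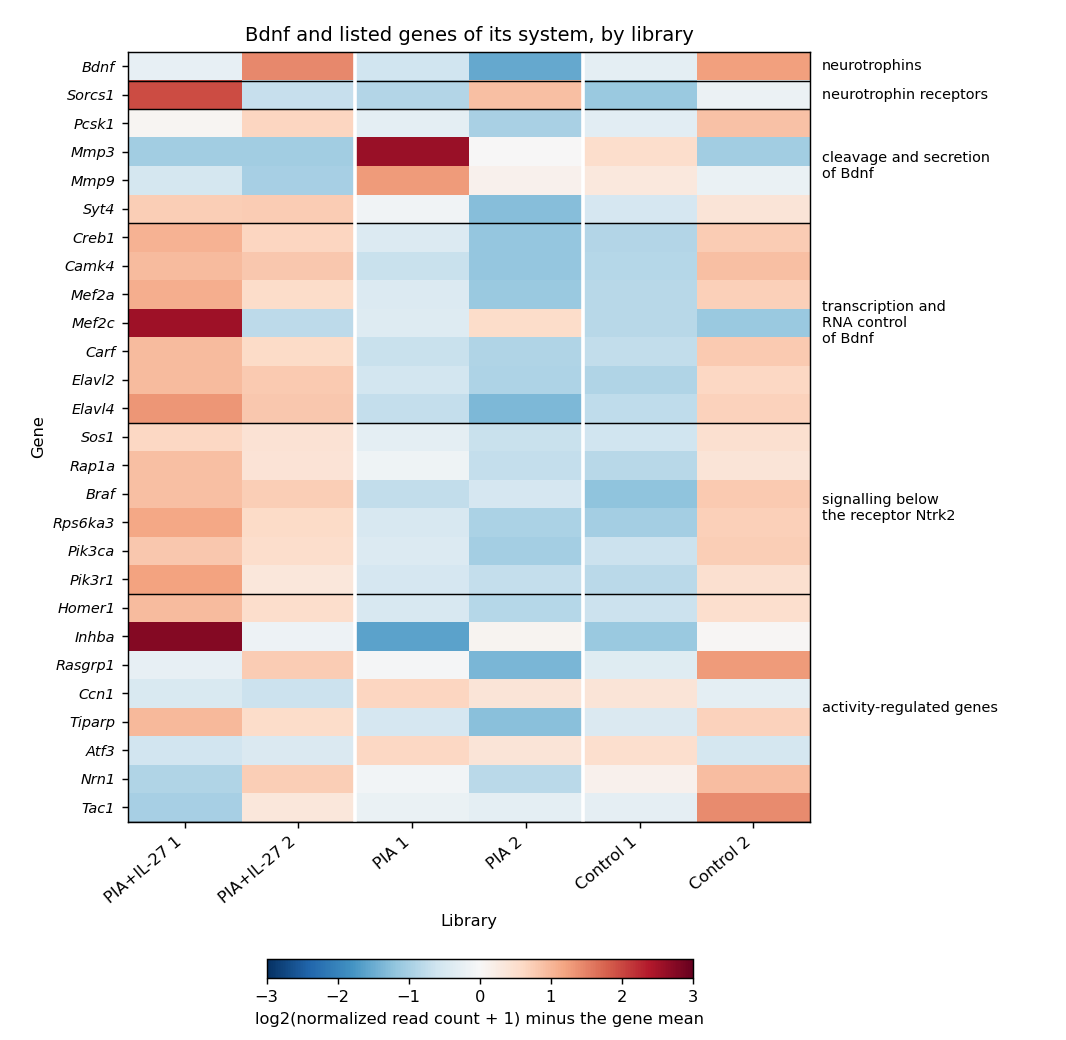
Bdnf and listed genes of its system and of neuronal activity (rows) in the 6 libraries (columns), coloured by log2(normalized read count + 1) minus the mean of each gene. Most transcription and signalling genes are above their mean in both PIA+IL-27 libraries and in Control 2, whereas Bdnf is above its mean in PIA+IL-27 2 and Control 2 only.

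Because Bdnf transcription follows neuronal activity, 56 activity-regulated genes were looked up, of which 8 are listed. In edgeR 0 of them passed in any comparison, with 0, 1 and 1 at an unadjusted p under 0.05 in PIA against Control, PIA+IL-27 against PIA and PIA+IL-27 against Control, beside the 6.28%, 18.7% and 2.86% of all tested genes. The crossed replicate block called 2 of them in PIA+IL-27 against PIA. Their median log2 was -0.84, 0.72 and -0.39 in the same order, and with TMM factors the second became -0.40. Tiparp, an inducible ADP-ribosyltransferase, was the listed member with both PIA libraries below the other 4, as for Bdnf and 9.91% of all listed genes. It had 283 and 214 normalized reads in PIA+IL-27, 101 and 60.0 in PIA, and 107 and 232 in Control. Rasgrp1, an exchange factor for Ras, had 869 and 1744 in PIA+IL-27, 1005 and 401 in PIA, and 804 and 2500 in Control, with its 2 highest libraries shared with Bdnf. Homer1, a scaffold of the postsynaptic density, had 1624 and 1220 in PIA+IL-27, 601 and 467 in PIA, and 537 and 1206 in Control. Inhba, the activin subunit beta A, went another way: it had 258 and 33.0 normalized reads in PIA+IL-27, 11.5 and 39.3 in PIA, and 16.7 and 38.1 in Control, so that a single library carried its log2 difference of 2.51 in PIA+IL-27 against PIA (adjusted p of 0.257 by edgeR). Tac1, the precursor of substance P, had 69.9 and 178 normalized reads in PIA+IL-27, 123 and 115 in PIA, and 117 and 375 in Control. Ccn1, a secreted matrix protein, was higher in both PIA libraries (169 and 141) than in both PIA+IL-27 libraries (78.2 and 68.0), and had 140 and 87.6 in Control. Such a separation of PIA+IL-27 below PIA was found for 16.5% of all listed genes.

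The genes with the pattern nearest to Bdnf over the 6 libraries were found by the root-mean-square difference of log2(normalized read count + 1), each gene centred on its own mean, among 2086 genes with a mean of at least 50. The nearest was Zim1, an imprinted zinc finger gene, at 0.0954 on the log2 scale. Zim1 had 88.6 and 301 normalized reads in PIA+IL-27, 77.8 and 38.2 in PIA, and 79.3 and 233 in Control, with the 6 libraries in the same order as for Bdnf. The next were Ankrd29 at 0.232, Dcc, the netrin receptor, at 0.277, Pcdh20, a protocadherin, at 0.289, Sema3c, a secreted semaphorin, at 0.298, and Epha5, an ephrin receptor, at 0.299. Dcc had 390 and 913 normalized reads in PIA+IL-27, 251 and 82.9 in PIA, and 288 and 864 in Control. These genes were chosen for this likeness, so it is a description with no test.

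**Figure D4:**
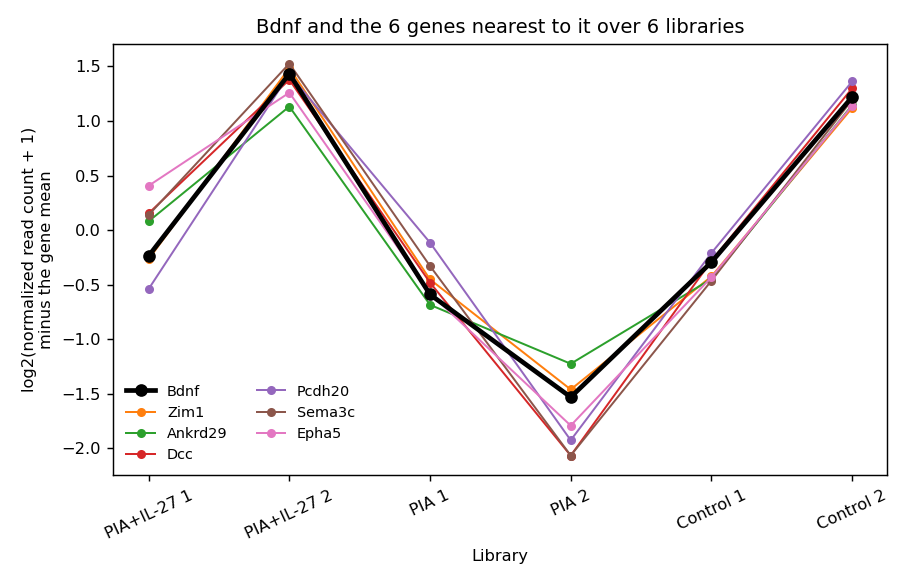
Log2(normalized read count + 1), centred on the mean of each gene, of Bdnf and the 6 genes nearest to it over the 6 libraries; the lines join the libraries only to guide the eye. All 7 genes are highest in PIA+IL-27 2 and Control 2 and lowest in PIA 2.

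Markers of the cells that make Bdnf, and of neighbouring tissue, also differed between libraries of a group. Of 12 dentate granule neuron markers 6 are listed, and their summed normalized read count was 1949 and 2848 in PIA+IL-27, 1233 and 640 in PIA, and 1101 and 3064 in Control, with PIA 2 lowest and Control 2 highest. Prox1, which defines dentate granule neurons, had 172 and 1358 in PIA+IL-27, 627 and 96.0 in PIA, and 590 and 1296 in Control. Like Bdnf it was highest in PIA+IL-27 2 and Control 2 and lowest in PIA 2, but PIA+IL-27 1 lay below PIA 1. The 6 dentate markers did not move as 1 group: 3 of 6 (Prox1, C1ql3 and Lct) had their 2 highest libraries in common with Bdnf, and 2 of 6 (Prox1 and Dsp) their lowest. Rfx3, a transcription factor of the same list, had 817 and 655 in PIA+IL-27, 203 and 245 in PIA, and 214 and 725 in Control, and Stxbp6 was likewise higher in PIA+IL-27 1 than in PIA+IL-27 2. Of 14 pyramidal neuron markers 3 are listed, summing to 945 and 2044 in PIA+IL-27, 2111 and 686 in PIA, and 1619 and 2524 in Control. The hippocampal markers Prox1 and Fibcd1 were both above 0 in all 6 libraries. Of 14 markers of neocortical excitatory neurons 6 are listed, summing to 29568 and 3752 in PIA+IL-27, 5029 and 10774 in PIA, and 4677 and 2878 in Control. The 2 libraries with the highest neocortical sums, PIA+IL-27 1 and PIA 2, are the lower libraries of their groups for Bdnf. Of the 6 dentate markers 3 (Prox1, Dsp and Lct) were also lower in both, and Rfx3 was higher in both. With both left out, which leaves 1 library in PIA+IL-27 and 1 in PIA, the log2 difference of Bdnf was -1.26 in PIA against Control and 2.05 in PIA+IL-27 against PIA. The libraries then left, PIA+IL-27 2 and PIA 1, had summed Y-linked reads of 6.80 and 541. Sex and group therefore cannot be told apart in that value of 2.05. The part of tissue composition in the Bdnf differences was not tested.

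**Figure D5:**
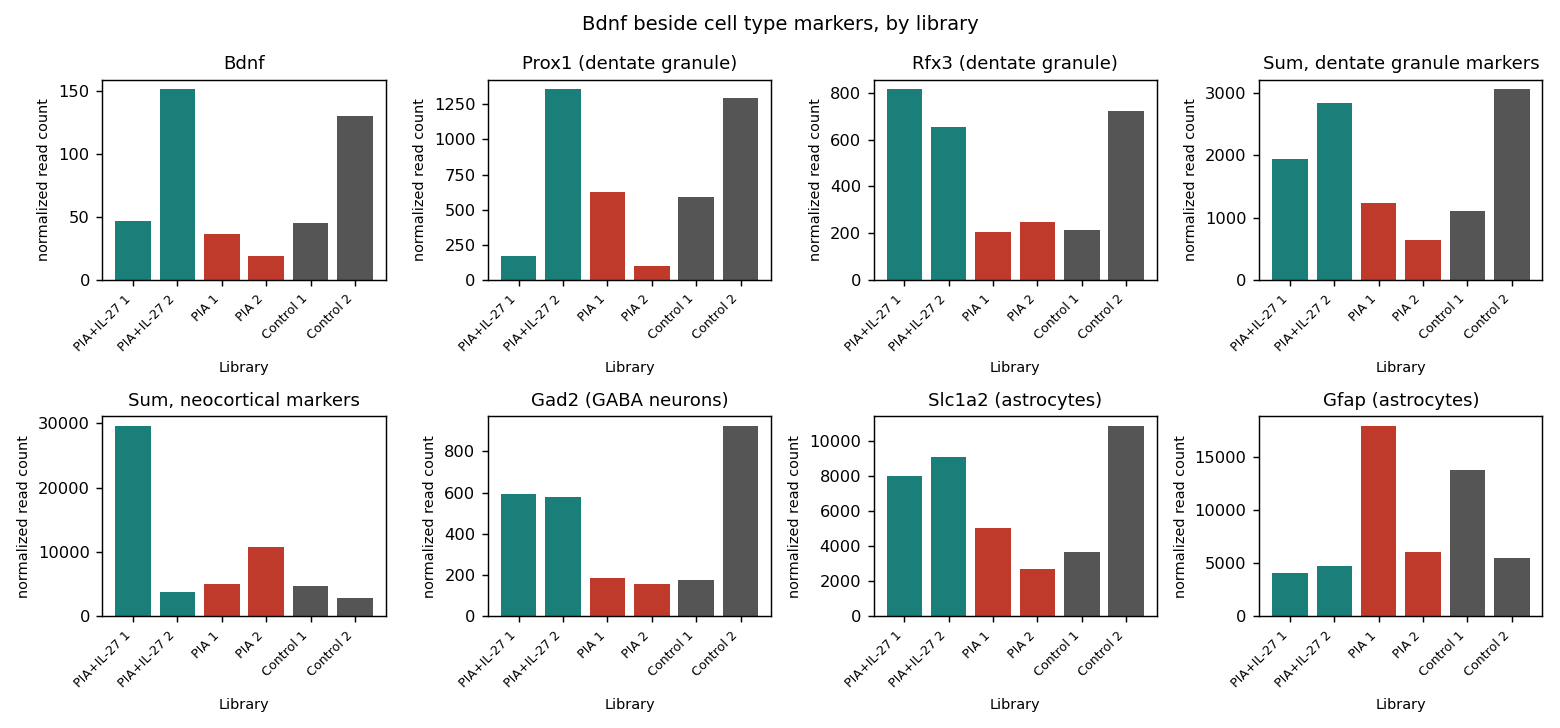
Normalized read count (vertical axis, from 0) of Bdnf, of Prox1 and Rfx3 (dentate granule neurons), Gad2 (GABA neurons), and Slc1a2 and Gfap (astrocytes), and summed over the listed markers of dentate granule and of neocortical excitatory neurons, 1 bar per library. Prox1 is lowest in PIA 2 at 96.0, as is Bdnf at 18.5, whereas Rfx3 is highest in PIA+IL-27 1 at 817; markers of the same cell type differ in their order of libraries.

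Gad2, the GABA-synthesis enzyme and the 1 listed marker of 10 for GABA neurons, had 591 and 581 normalized reads in PIA+IL-27, 185 and 159 in PIA, and 176 and 924 in Control. All 10 choroid plexus markers are listed, and their sum was 163 and 866 in PIA+IL-27, 11979 and 410 in PIA, and 291 and 61757 in Control; Tmem72 was at 0 in both PIA+IL-27 libraries, Otx2 in PIA+IL-27 1 and Kcne2 in Control 1. The listed microglia markers (4 of 11) summed to 1728 and 986 in PIA+IL-27, 1441 and 2982 in PIA, and 1477 and 977 in Control, astrocyte markers (4 of 9) to 14049 and 15868 in PIA+IL-27, 24041 and 9313 in PIA, and 18135 and 18591 in Control, and endothelial markers (2 of 7) to 205 and 304 in PIA+IL-27, 578 and 208 in PIA, and 344 and 367 in Control. Members of these sums went different ways. Gfap, the astrocyte filament, had 4066 and 4747 in PIA+IL-27, 17945 and 6036 in PIA, and 13757 and 5522 in Control, whereas Slc1a2, the glutamate transporter, had 8016 and 9098 in PIA+IL-27, 5015 and 2719 in PIA, and 3673 and 10850 in Control. P2ry12, a receptor of resting microglia, had 258 and 184 in PIA+IL-27, 9.61 and 56.7 in PIA, and 14.7 and 232 in Control, whereas C1qa, a complement subunit, had 627 and 355 in PIA+IL-27, 623 and 1501 in PIA, and 702 and 317 in Control. The summed normalized reads of 4 Y-linked genes were 1476 and 6.80 in PIA+IL-27, 541 and 594 in PIA, and 2.94 and 9.52 in Control, so both PIA libraries were high, both Control libraries were low, and PIA+IL-27 held 1 of each. In PIA against Control, sex and group therefore cannot be told apart. The same holds for PIA+IL-27 against PIA in the fits without PIA+IL-27 1. Both libraries with a high Bdnf level had a low Y-linked sum, as had Control 1, and the part of sex in the other Bdnf differences was not tested.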

How the data were processed

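Total RNA of the mouse hippocampus was sequenced in 6 libraries. Per the file headers, the deposited table gives the authors' estimated read count (an expected count), a normalized read count (a signal), TPM, log2 ratios, and p-values or Q values. The normalized count equals the rounded-up read count over 1 factor per library (0.917 to 1.05). The sources used here do not give the aligner, counter, build, strand or the authors' test. The table is a selection: each of its 3733 genes reaches a log2 of 1 in size with a Q value within 0.05 in some comparison of the authors, so adjusted p-values refer to that selection.

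Read counts were rounded and fitted in edgeR 4.0.16 (R 4.3.3) by the quasi-likelihood test, all 6 libraries together, with the authors' factors and filterByExpr, which left 3216 genes, and Benjamini-Hochberg adjustment at 0.05. The common coefficient of variation was 0.597. The spread of each gene was set wholly by a trend over all tested genes, so the standard error is not that of Bdnf alone. Alternatives used DESeq2 1.42.0, limma 3.58.1 on log2 TPM with 1 or 0.1 added, other factors, no filter, a replicate block, and each library left out. Replicate numbers were not treated as pairs. Bdnf and the gene lists were chosen with earlier results of these data known. Named genes are Bdnf, the listed receptors, up to 6 members per list with the smallest unadjusted p, and the 6 genes nearest in pattern. GC content came from GENCODE M21 for 3545 genes, and promoters from RefSeq for GRCm38.p6. Some members of the gene and marker lists are not reported here.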

Additional observations from a re-analysis of the deposited data

How the results depend on the processing

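For Bdnf, PIA against Control stayed negative in 16 of 16 alternatives (log2 -2.24 to -0.70; adjusted p 0.120 to 0.9996) and PIA+IL-27 against PIA stayed positive in 17 of 17 (0.54 to 2.45; adjusted p 0.0238 to 0.920). PIA+IL-27 against Control, at 0.18, turned to -0.27 with TMM and with median-of-ratios factors and to -0.42 with the GC trend removed, and ranged from -0.90 to 1.14 with 1 library left out. Where a single library is left in a group, it is assumed to vary like the other groups.

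The labels do not say whether replicate numbers pair the libraries. The correlation of same-numbered deviations over genes was 0.145 in PIA against Control, -0.261 in PIA+IL-27 against PIA and 0.0610 in PIA+IL-27 against Control. With 2 libraries a group, these values cannot settle whether the samples were paired. With the replicate block Bdnf was at -1.35, 1.51 and 0.16 in the same comparisons, and 3, 4 and 3 genes were called. With crossed numbers, a block chosen after the data were seen, PIA+IL-27 against PIA called 1195 genes, among them Bdnf (log2 1.71, adjusted p 0.0238), 10 neurotrophin system genes and 2 activity-regulated genes.

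Genes called in PIA against Control, PIA+IL-27 against PIA and PIA+IL-27 against Control were 7, 14 and 10. They were 0, 0 and 0 with TMM or median-of-ratios factors, with the GC trend removed, and with PIA 2 and PIA+IL-27 1 both left out; at an unadjusted p under 0.05, TMM factors gave 117, 556 and 115. DESeq2 called 2, 4 and 1. With only the libraries compared, PIA+IL-27 against PIA called 449, including 3 neurotrophin system genes, and PIA+IL-27 against Control called 1. For limma the last comparison had 2 with 1 added and 5 with 0.1 added, and PIA against Control had 12 with 0.1 added. Leaving out 1 library gave 0 to 7 in each comparison, with 0 in all 3 without Control 1 or without Control 2. The cause of these shifts was not tested. Bdnf had 17 to 156 reads per library, and with 2 libraries a group the intervals of its differences span several fold.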
